A study of Mus musculus with 16 samples.

Results

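The T cell receptor (TCR) locus segments were taken as every probe set of the array whose annotated gene symbol is spelled like a segment of, or a whole, TCR alpha, beta, gamma or delta locus. The spelling matched 21 of 45101 probe sets. Of these, 3 carry the symbol Tradd, an adaptor of a tumor necrosis factor receptor that only shares letters with the segment names, and they are reported apart. The 18 remaining probe sets carry 11 symbols and fall on the alpha locus (10 probe sets), the beta locus (3) and the gamma locus (5). No symbol of the delta locus and no constant region symbol matched, and transcripts known by those names were not analysed here. Of the 191 alpha, 53 beta and 15 gamma segments in RefSeq (assembly GRCm38.p6), 5, 2 and 3 are named by a probe set, so the values below are a small sample of each locus.

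The question of the study was what loss of PKBα (Akt1), a serine/threonine kinase downstream of PI3K, does to thymocytes around the pre-TCR checkpoint. DN3 cells (lineage-negative CD25+ CD44-) and ISP8 cells (immature single positive, CD4- CD8+ CD3-) were sorted from 4 PKBα-/- mice and 4 wild-type littermates. Their background was mainly, but not wholly, C57Bl/6. Every mouse is represented by an array of DN3 and an array of ISP8 cells (8 mice, 16 arrays). PKBα was absent from the whole mouse, including the thymic stroma, and not from thymocytes alone. Pair 1 was female and 5 weeks old, pair 2 male and 2 weeks old, pair 3 male and 3 weeks old, and pair 4 female and 3 weeks old. The sorts set aside cells with surface CD3 (ISP8) or with surface TCRβ, TCRγδ, CD4 or CD8 (DN3), so the transcripts were measured in cells gated as lacking a receptor on the surface.

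The TCR chains are built from variable (V), joining and constant gene segments that the RAG recombinase cuts and joins during thymocyte development. Beta, gamma and delta segments rearrange in double negative cells. A productive beta chain pairs with the invariant pre-TCR alpha chain and carries the cell past DN3 through ISP8 to the double positive stage, where the alpha locus rearranges. A locus is often transcribed from unrearranged segments before it is cut, so a V transcript need not encode a receptor chain. Gamma locus transcripts are known to be low in thymocytes that follow the αβ lineage.

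The array median of the deposited GC-RMA values, which are linear intensity units, lay between 58.5 and 70.5 for DN3 and between 55.1 and 60.4 for ISP8 cells. The most strongly detected Akt1 probe set read 1198 to 2211 in wild-type and 2.01 to 27.3 in PKBα-/- arrays, so the genotype labels held in every array. All 10 listed DN3 stage genes fell from DN3 to ISP8 (Il2ra, which encodes CD25, by 5.41 on the log2 scale). Of 8 tested genes listed for the ISP8 and double positive stage, 5 rose (Cd8a by 5.30) and 1 fell (Cd24a by 0.31). Ccr9 and Themis were not called. A value of 20 was the floor for testing, as in the methods of the study, and a change was called at a Benjamini-Hochberg adjusted p under 0.05 over all probe sets tested with limma. Levels of different probe sets cannot be set against each other, since each binds with its own efficiency.

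**Figure D1:**
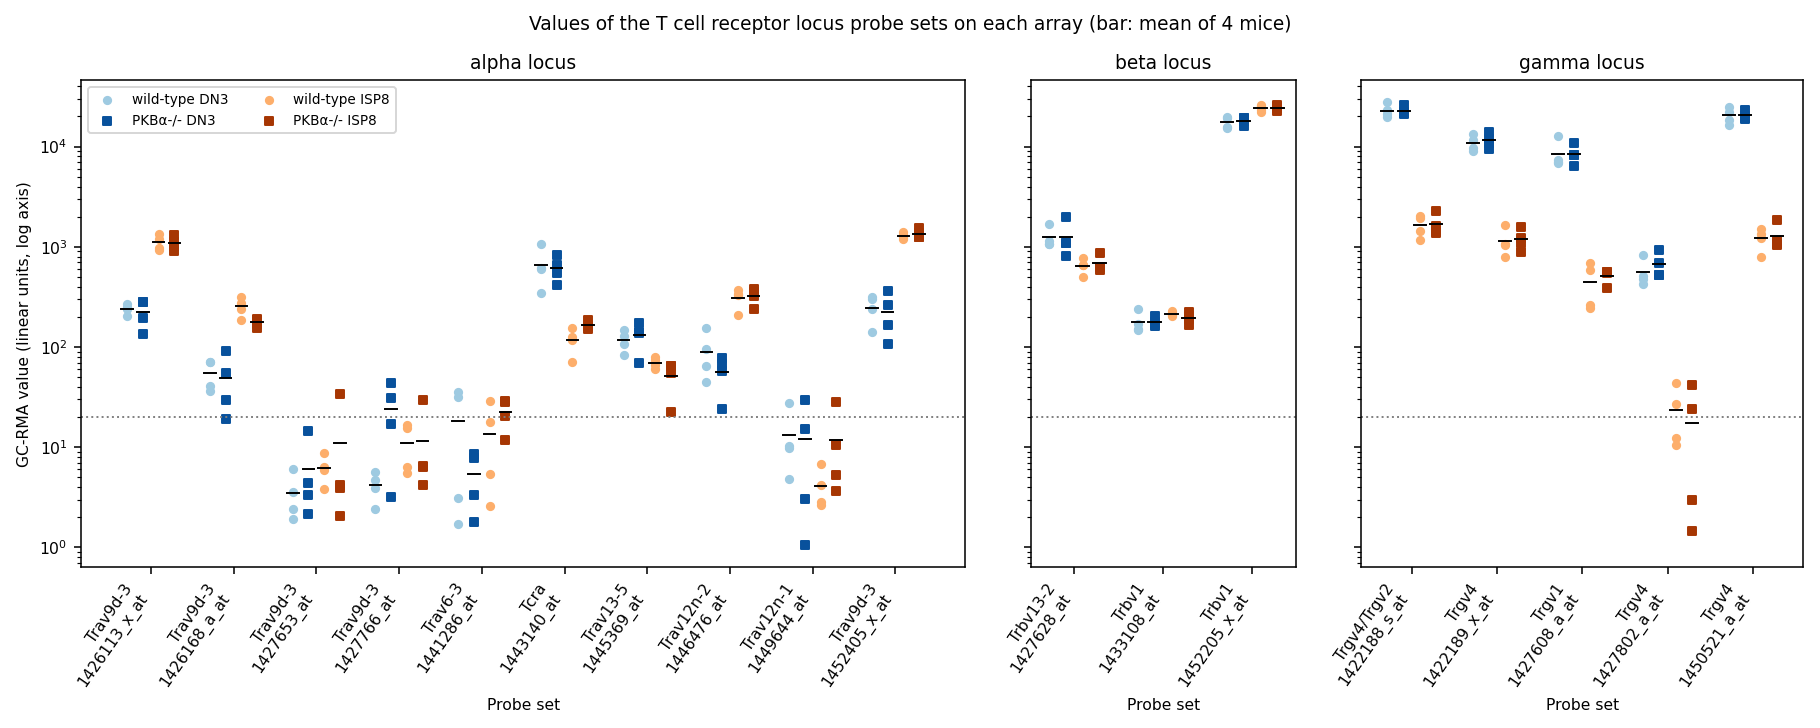
GC-RMA values (linear units on a log axis) of the 18 TCR locus probe sets on each of the 16 arrays, with 4 mice per group, a bar at the group mean and a dotted line at the floor of 20. All 5 gamma probe sets were lower in ISP8 than in DN3 arrays, 4 alpha probe sets were higher, and the wild-type and PKBα-/- arrays of a subset lay among each other.

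Gamma locus transcripts were abundant in DN3 and fell steeply in ISP8 cells. All 5 gamma probe sets were called lower in ISP8, and in each of them all 8 mice went down. For the 4 that stayed above the floor of 20 the fall was 9.82-fold to 18.2-fold. The probe set for Trgv1 (1427608_a_at), a V segment next to Trgv2 in RefSeq's gene order, read 12687, 7026, 6887 and 7321 in wild-type DN3 cells of pairs 1 to 4. It read 10870.4, 8161, 8224 and 6359 in PKBα-/- DN3 cells. In ISP8 cells the same mice gave 690.0, 260.4, 587 and 245 (wild-type) and 543, 562, 566 and 391 (PKBα-/-). The lowest DN3 array stood far above the highest ISP8 array, and the log2 change was -4.18 (SE 0.12, limma adjusted p 1.01e-12), an 18.2-fold fall.

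The probe set shared by Trgv4 and Trgv2 (1422188_s_at) cannot separate these segments, of which Trgv4 lies near one end of the locus and Trgv2 near the other. Its values in DN3 cells were 27626, 19575, 21183 and 23300.1 in the wild-type and 26072, 21053, 22337 and 21565 in the PKBα-/- mice. In ISP8 cells they were 2047, 1437, 1931 and 1166 in the wild-type and 1610.25, 2292, 1447 and 1371 in the PKBα-/- mice. The subsets did not overlap, and the log2 change was -3.80 (SE 0.10, adjusted p 2.96e-13).

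The 3 probe sets annotated to Trgv4 alone moved the same way. They cannot be counted as independent measurements, because they and the shared probe set are annotated to the same segment. No probe sequences were used, so which part of a transcript each probe set of these loci reads is not known here. Probe set 1450521_a_at gave 24619, 16304, 18634 and 22270.4 in wild-type DN3 and 23344, 18752, 20402 and 19451 in PKBα-/- DN3 cells. It gave 1219, 1352, 1512 and 784 in wild-type ISP8 and 1042, 1846, 1068 and 1144 in PKBα-/- ISP8 cells, with no overlap and a log2 change of -4.07 (SE 0.13, adjusted p 3.74e-12). Probe set 1422189_x_at, whose suffix warns that it may bind several transcripts, ranged from 9054 to 14052 in DN3 and from 785 to 1667 in ISP8 cells (log2 change -3.30, SE 0.14).

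The remaining gamma probe set reached the floor in ISP8 cells, so the size of its fall is not settled. Probe set 1427802_a_at (Trgv4) read 835, 423, 516 and 478 in wild-type and 921, 523, 695 and 528 in PKBα-/- DN3 cells. In ISP8 cells it read 12.4, 10.4, 27.0 and 43.7 (wild-type) and 1.45, 41.5, 24.0 and 2.98 (PKBα-/-), with 2 of the 4 arrays of each genotype above the floor of 20. Its log2 change of -5.55 (SE 0.48) therefore depends on values below the floor, and became -4.03 with a constant of 20 added before taking logs, beside -4.12 for Trgv1 and -4.05 for 1450521_a_at on that scale.

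Alpha locus transcripts did not move together. Of the 10 alpha probe sets, 7 passed the filter, 4 of which were called higher in ISP8 and 2 lower. Of the 5 probe sets annotated to the V segment Trav9d-3, which may bind other transcripts of the alpha locus as well, 3 rose. The first of these (1452405_x_at) read 140.1, 240.0, 299 and 313 in wild-type DN3 and 107, 166, 365 and 265 in PKBα-/- DN3 cells. It read 1393, 1197, 1264 and 1311 in wild-type ISP8 and 1533, 1252, 1245 and 1371 in PKBα-/- ISP8 cells. All ISP8 arrays were above all DN3 arrays, and the log2 change was 2.58 (SE 0.19, adjusted p 2.47e-08).

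The second Trav9d-3 probe set (1426113_x_at) gave 205, 239, 250.4 and 270.1 in wild-type and 133, 283, 285 and 195 in PKBα-/- DN3 cells. In ISP8 cells its values were 1356, 939, 968 and 1189 in the wild-type and 1322, 1013, 1106 and 906 in the PKBα-/- mice. These groups did not overlap either, and the log2 change was 2.26 (SE 0.15, adjusted p 8.59e-09). The third (1426168_a_at) was closer to the floor, between 19.1 and 91.3 in DN3 and between 155 and 318 in ISP8 cells, and rose by a log2 change of 2.18 (SE 0.25, adjusted p 3.19e-06).

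Trav12n-2 (1446476_at), a V segment of another alpha subfamily, also rose. Its wild-type DN3 values were 45.3, 64.4, 95.3 and 153, and its PKBα-/- DN3 values 24.2, 68.0, 77.3 and 58.1. In ISP8 cells it reached 369, 209, 337 and 328 in the wild-type and 377, 351, 242 and 322 in the PKBα-/- mice. No ISP8 array fell within the DN3 range, and the log2 change was 2.26 (SE 0.25, adjusted p 2.09e-06).

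The probe set with the whole-locus symbol Tcra (1443140_at) went the other way. The annotation does not say which part of the locus it reads, and in RefSeq the alpha locus encloses the delta locus. It gave 1056, 621, 346 and 603 in wild-type and 821, 658, 421 and 549.6 in PKBα-/- DN3 cells. It gave 155, 127, 71.6 and 116 in wild-type and 165, 163, 188 and 152 in PKBα-/- ISP8 cells. Every mouse was lower in ISP8, the subsets did not overlap, and the log2 change was -2.13 (SE 0.14, adjusted p 7.61e-09).

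Trav13-5 (1445369_at) fell less. It was at 108, 149, 83.2 and 129 in wild-type and 176, 141, 69.2 and 137 in PKBα-/- DN3 cells, and at 60.0, 78.9, 73.7 and 66.5 in wild-type and 22.6, 64.2, 54.9 and 65.1 in PKBα-/- ISP8 cells. All 8 mice went down, although the ranges of the subsets overlapped, with a log2 change of -1.05 (SE 0.27, adjusted p 0.00479). In the wild-type arrays alone the change was -0.72 and was not called (adjusted p 0.101).

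The other 4 alpha probe sets stayed near the floor. Trav6-3 (1441286_at) ranged from 1.70 to 35.9 over the 16 arrays and was not called (log2 change 1.15, 95% interval -0.91 to 3.21). The last 2 Trav9d-3 probe sets, 1427653_at and 1427766_at, and Trav12n-1 (1449644_at) did not pass the filter, with highest values of 34.1, 44.2 and 29.6.

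Beta locus transcripts changed little in comparison, and in both directions. Trbv13-2 (1427628_at), a V segment inside the main V cluster, read 1702, 1058, 1068 and 1142 in wild-type and 1982, 1085, 1103 and 804 in PKBα-/- DN3 cells. It read 767, 501, 652 and 662 in wild-type and 875, 592, 631 and 635 in PKBα-/- ISP8 cells. Each mouse was lower in ISP8 than in DN3 but the ranges overlapped, and the log2 change was -0.87 (SE 0.10, adjusted p 3.57e-06).

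The Trbv1 probe set 1452205_x_at was bright in both subsets. Trbv1 is the first V segment of the locus in RefSeq's order, and the suffix of the probe set warns of binding to several transcripts. It gave 19432, 15305, 15779.8 and 19672 in wild-type and 19412, 15893, 18192 and 19287 in PKBα-/- DN3 cells. In ISP8 cells it gave 25484, 23244, 22115 and 25815 in the wild-type and 26299.8, 22752, 24618 and 24281 in the PKBα-/- mice. The rise was small but present in all 8 mice without overlap, at a log2 change of 0.45 (SE 0.04, adjusted p 2.32e-07). The other Trbv1 probe set (1433108_at) read between 148 and 238 in DN3 and between 166 and 227 in ISP8 cells and was not called (log2 change 0.22, 95% interval -0.09 to 0.52). Quantile normalization of the arrays brought it past the threshold (0.47, adjusted p 0.0177).

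**Figure D2:**
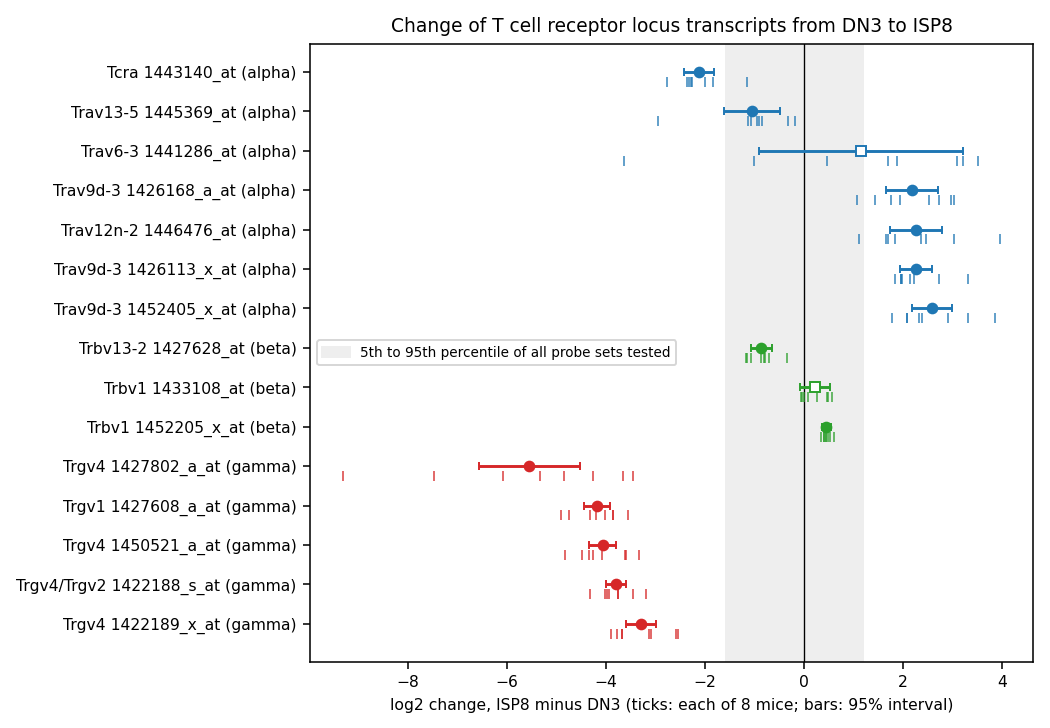
Log2 change from DN3 to ISP8 (horizontal axis) of the 15 TCR locus probe sets tested, colored by locus, with the 95% interval from limma as a bar, each of the 8 mice as a tick and open squares for probe sets not called. The gamma probe sets lay between -5.55 and -3.30, outside the shaded 5th to 95th percentile of all probe sets tested. The alpha probe sets spread from -2.13 to 2.58, past the shaded range on both sides.

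In all, 15 of the 18 TCR locus probe sets could be tested between the subsets, and 5 were called higher and 8 lower in ISP8. Over all 32831 probe sets tested, 17.5% were called higher and 24.7% lower. A change of at least 4-fold was seen in 4 probe sets upward and 6 downward, against 1.06% and 2.87% of all probe sets tested. The DN3 and ISP8 arrays did not overlap for 11 of the 15, against 16.4% of all. Since several probe sets share a segment symbol, these counts describe the probe sets and not as many separate genes. The median log2 change was -4.07 over the gamma, 2.18 over the 7 tested alpha and 0.22 over the beta probe sets, beside -0.07 over all probe sets. The alpha median was 0.89 when the probe sets near the floor were kept and 1.15 without those with an _x_at suffix, while the beta median became -0.33 without that suffix. In sorted populations, fewer cells with a transcript and less transcript per cell cannot be told apart.

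The partners of the receptor chains fell more mildly than the gamma transcripts. Of the CD3 and pre-TCR list, Ptcra, the pre-TCR alpha chain, fell by 1.74 on the log2 scale, and the signaling chains Cd3g, Cd3d and Cd247 fell by 1.18, 0.53 and 0.49. Cd3e was not called (log2 change 0.23, adjusted p 0.159). Of 8 V(D)J recombination genes, 4 were called lower and 0 higher, against 24.7% and 17.5% of all probe sets tested. The genes called lower were the recombinase genes Rag1 (by 0.48) and Rag2 (by 0.49), Prkdc, the kinase of DNA end joining (by 0.31), and Dntt, which adds nucleotides at the joins (by 0.18). Ptcra, Rag1, Rag2 and Dntt are also among the DN3 stage genes given above, with the same values.

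Most listed transcripts associated with γδ T cells were also lower in ISP8 than in DN3 cells. Of the 7 listed markers tested, 6 were called lower in ISP8 cells and 0 higher, with a median log2 change of -1.50. Over all probe sets tested, 24.7% were called lower and 17.5% higher. Zbtb16 was not called (log2 change -0.10, limma adjusted p 0.921). The transcription factor Maf fell by 3.35 on the log2 scale, the scavenger receptor gene Cd163l1 fell by 2.08 and the transcription factor Sox13 fell by 1.67. The summed level of the list, in which bright probe sets weigh most, ranged from 4867 to 9285 over DN3 and from 1437 to 2410 over ISP8 arrays. Il17a stayed at or below 42.1 and Zbtb16 at or below 43.4 in DN3 cells, and at or below 24.5 and 76.8 in ISP8 cells. Markers of mature single positive cells also differed between the subsets, 3 of 7 being higher (Cd5, Cd6 and Itm2a) and 0 lower. The share called higher was 17.5% over all probe sets tested. Ccr7 and S1pr1, which were not called, remained at or below 97.6 and 82.9 on every array. Klf2 and Cd69 were not called either, but their highest values were 254 and 136, each on a DN3 array. Of lists for other cells a sort could hold, 1 of 5 B cell genes tested was higher and 1 lower, 3 of 9 macrophage and dendritic cell genes were higher and 4 lower, 1 of 5 NK cell genes was higher (Gzma) and 1 lower (Nkg7), 0 of 1 erythroid gene was called, and 1 of 6 epithelial and stromal genes was lower. The log2 ratio of the 3′ to the 5′ actin control, a sign of RNA length, lay between 2.50 and 3.11 in DN3 and between 1.85 and 2.90 in ISP8 cells, whereas that of the Gapdh control lay between 1.41 and 2.27 and between 1.49 and 2.39. The part of these differences in the locus changes was not tested.

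Loss of PKBα was not seen to change any of these transcripts in DN3 cells. Of 14 TCR locus probe sets tested, limma called 0, and 0 had an unadjusted p under 0.05. Over all 33962 probe sets, 0.0383% were called. At the gamma locus, the log2 change between PKBα-/- and wild-type littermates was 0.01 for Trgv1 (95% interval -0.17 to 0.19), 0.02 for 1450521_a_at (-0.13 to 0.16), and -0.003 for the shared probe set 1422188_s_at (-0.13 to 0.12). The smallest p belonged to Trgv4 probe set 1427802_a_at, higher in all 4 pairs (log2 change 0.26, 95% interval -0.03 to 0.54, limma p 0.0754). Next were Trav12n-2, lower in 3 of 4 pairs (-0.63, -1.41 to 0.15, p 0.106), and 1422189_x_at, higher in all 4 pairs (0.09, -0.05 to 0.22, p 0.183). The methods' paired test, which does not pool the spread over probe sets, gave both Trgv4 probe sets an unadjusted p under 0.05 (0.0353 and 0.0323), with adjusted p 0.979 for each. It selected 0 TCR locus probe sets at the 1.5-fold limit of the methods.

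No beta or alpha probe set was called in DN3 cells either. The bright Trbv1 probe set differed by 0.06 (95% interval -0.07 to 0.18) and Trbv13-2 by -0.05 (-0.31 to 0.21). The Tcra probe set differed by -0.03 (-0.33 to 0.27). For the 3 Trav9d-3 probe sets tested, the changes ran from -0.34 to -0.17, and the interval of 1426168_a_at, nearest to the floor, reached from -1.33 to 0.65, so that a change of more than 2-fold was not excluded there. Cd163l1 was the 1 listed γδ marker called between genotypes in DN3 cells, higher in PKBα-/- (log2 change 1.29, limma adjusted p 5.39e-04). The study lists the same probe set as raised in PKBα-/- DN3 cells, from these same arrays, so this is no separate finding.

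In ISP8 cells limma called 0 of the 15 TCR locus probe sets tested, and 1 had an unadjusted p under 0.05, while 0.0147% of all 34016 probe sets were called. That probe set was the Trav9d-3 probe set 1426168_a_at, which read 318, 273, 239.7 and 188 in wild-type and 155, 192, 187 and 169.8 in PKBα-/- cells of the same pairs. It was lower in all 4 PKBα-/- mice, though the groups overlapped by the wild-type mouse of pair 4 (log2 change -0.51, 95% interval -0.96 to -0.06, p 0.0298, adjusted p 0.803). The methods' paired test gave 0 of the 15 an unadjusted p under 0.05 and selected 0 of them. The other Trav9d-3 probe sets tested gave -0.03 (-0.30 to 0.23) and 0.06 (-0.16 to 0.28). Tcra was higher in all 4 PKBα-/- mice (0.56, -0.02 to 1.13, p 0.0564), by 0.09, 0.36, 1.39 and 0.39 in pairs 1 to 4, and the change was 0.28 without pair 3. Trav13-5 was lower in all 4 (-0.54, -1.38 to 0.30, p 0.186), and the change was -0.25 without pair 1. Trgv1 was higher in 2 of 4 pairs (0.35, -0.11 to 0.81, p 0.128).

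The gamma and beta probe sets were also not called in ISP8 cells. The changes of 1422188_s_at, shared by Trgv4 and Trgv2, and of the brighter probe sets of Trgv4 alone were between 0.04 and 0.10. Those of Trbv13-2 and the bright Trbv1 probe set were 0.08 (95% interval -0.20 to 0.36) and 0.02 (-0.10 to 0.14). Near the floor, 1427802_a_at differed by -1.29 with an interval of -3.99 to 1.41. The actin 3′ to 5′ log2 ratio was higher in PKBα-/- ISP8 cells in each of the 4 pairs, by 0.061 to 0.44, while the Gapdh ratio differed by -0.27 to 0.60, and the part of either in these values was not tested.

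**Figure D3:**
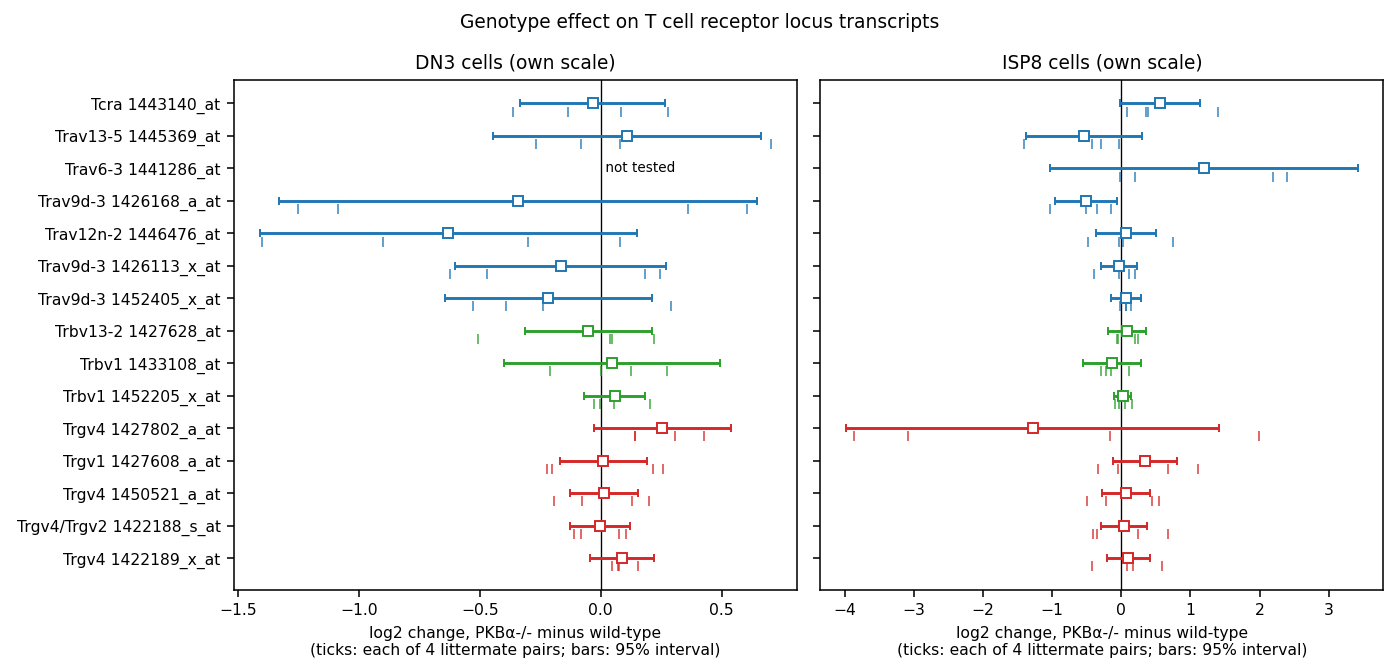
Log2 change between PKBα-/- and wild-type littermates (horizontal axes, each panel on its own scale) of the TCR locus probe sets in DN3 cells (left) and ISP8 cells (right), with the 95% interval from limma as a bar and each of the 4 pairs as a tick. None of the open squares was called, and the interval of 1426168_a_at in ISP8 cells (-0.96 to -0.06) was the 1 that did not reach 0.

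The effect of PKBα loss was also compared between the subsets. Of the 15 TCR locus probe sets, 0 were called in this test and 0 had an unadjusted p under 0.05. Among all 32831 probe sets limma likewise called 0%, with 1495 at an unadjusted p under 0.05. The smallest p was that of Tcra, whose effect was higher by 0.59 in ISP8 than in DN3 cells (95% interval -0.01 to 1.19, p 0.0536, adjusted p 0.968) and was so in all 4 pairs.

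A probe set without a symbol in the annotation used is listed in the study as a beta V transcript. It does not meet the spelling rule, and as it was picked by the study on these same arrays its genotype difference is a description. In DN3 cells it read 449.9, 331, 312 and 299 in the wild-type and 175, 202, 253 and 216 in the PKBα-/- mice, lower in all 4 pairs (log2 change -0.71, SE 0.20). This is a 1.64-fold fall by the mean log2 change over pairs, smaller than the fold the study lists. How the study averaged its fold over pairs is not given, so the folds may not be alike. The log2 changes of pairs 1 to 4 were -1.37, -0.71, -0.30 and -0.46. The 1.5-fold selection of the methods, as run here on log2 values, did not pick this probe set in DN3 cells. In ISP8 cells it read 319, 285, 274 and 384 in the wild-type and 305, 364, 509 and 585 in the PKBα-/- mice, higher in 3 of 4 pairs (0.45, SE 0.18). The groups were apart in DN3 and overlapped in ISP8 cells. Neither change passed the threshold over all probe sets (adjusted p 0.709 and 0.803), nor did their difference (1.16, SE 0.26, adjusted p 0.968). The 3 beta probe sets with a symbol differed by -0.05 to 0.06 between genotypes in DN3 cells.

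The littermate pairs differed among themselves at these loci. In DN3 cells both mice of pair 1, the only pair of 5 weeks, were above the 6 others for 8 of the 14 probe sets tested, among them all 5 of the gamma locus, Trbv13-2, Trbv1 probe set 1433108_at and Tcra. Over all probe sets tested in DN3 cells this held for 7.8%. Every gamma probe set except that of Trgv1 carries the symbol Trgv4, so these counts do not describe as many separate segments. The same mice were below the 6 others for 2 (1452405_x_at of Trav9d-3 and Trav12n-2), against 6.33% of all. For Trgv1 the pair 1 mice stood at 12687 and 10870.4 and the others at 6359 to 8224. Trbv13-2 read 1702 and 1982 in pair 1 and 804 to 1142 in the others.

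In ISP8 cells the pair stood out at other segments. Both its mice were above the 6 others for 4 of 15 probe sets (2 of Trav9d-3, Trav12n-2 and Trbv13-2), against 5.88% of all, and below them for 0, against 5.28%. None of the gamma probe sets was among these. In DN3 cells the summed γδ T cell list was 8744 and 9285 in pair 1 and 4867 to 6407 in the others. The largest values in the sum of pair 1 were those of Il17rb (4654 and 3693) and Cd163l1 (2978 and 4375). The sum thus mainly follows these bright probe sets and is no measure of the share of γδ T cells. Maf and Blk were also above the DN3 median in both mice of the pair. Sox13, Etv5 and Zbtb16 were below it in both, and Il17a lay on either side. The part of this list in the gamma values was not tested. The pattern of pair 1 was noticed in the values and has 1 pair behind it, so age and pair cannot be told apart. Without pair 1 the changes between the subsets were -4.16 for Trgv1, 2.25 for 1452405_x_at and 1.85 for Trav12n-2, and the same number of TCR locus probe sets, 13, was called.

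**Figure D4:**
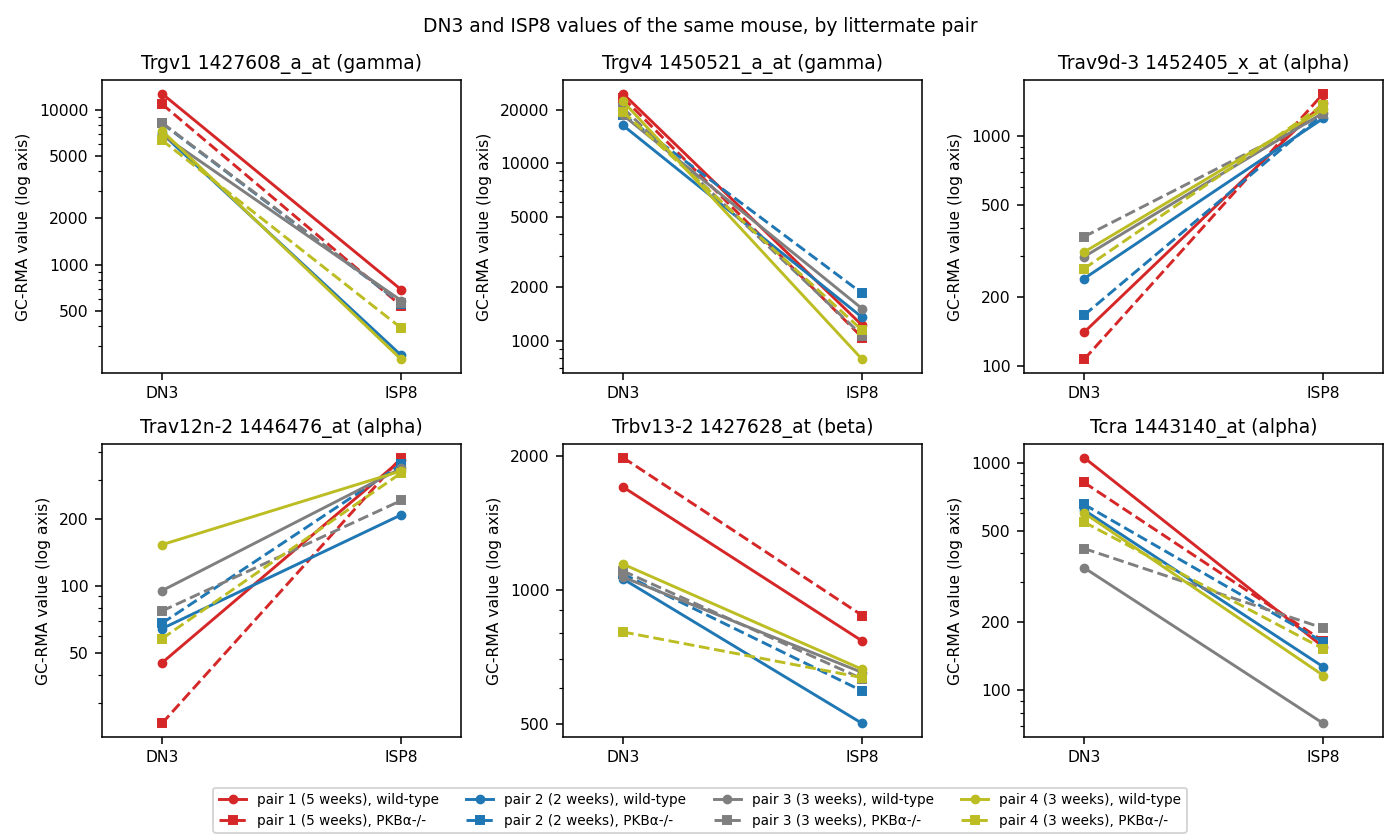
GC-RMA values (log axes) of 6 TCR locus probe sets in DN3 and ISP8 cells of the same mouse, joined by a line, with color for the littermate pair and solid or dashed lines for wild-type or PKBα-/-. In DN3 cells the pair of 5 weeks was highest for Trgv1, Trgv4, Trbv13-2 and Tcra and lowest for Trav9d-3 and Trav12n-2, and every line went down for the gamma, beta and Tcra probe sets and up for Trav9d-3 and Trav12n-2.

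The 3 Tradd probe sets, matched by spelling, are no part of these counts. One of them (1452622_a_at) fell slightly in ISP8 cells (log2 change -0.48, adjusted p 4.21e-04) and was not called in the PKBα-/- arrays alone (-0.36, adjusted p 0.0653). The other 2 were not called, and no Tradd probe set was called between genotypes in either subset.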

How the data were processed

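RNA of sorted cells was labelled by the authors with a 2-cycle protocol for Affymetrix mouse arrays, and they deposited background-corrected, normalized GC-RMA intensity values on a linear scale. The genome build behind the probe annotation is not given in the sources used here. Probe sets were named from GEO's platform annotation (34958 with 1 symbol, 932 with several, 9211 with none).

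Values were taken as log2 with no constant and fitted with limma 3.58.1 (R 4.3.3; eBayes with a mean trend). The genotype was tested within a subset with the littermate pair as a block, on probe sets that exceeded 20 in 1 or both littermates of 3 or more pairs. ISP8 was compared with DN3, and the genotype effects with each other, over 16 arrays with the mouse as a block, on probe sets above 20 in at least 6 mice. The labels pair littermates, and deviations from the group mean correlated within pairs at 0.316 to 0.384 (DN3) and 0.0706 to 0.178 (ISP8; between pairs, at most 0.0714 and 0.0540). The number of mice limits the precision. DN3 and ISP8 arrays come from the same mice.

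Each probe set was named for the text if it had a whole-locus symbol, was among the 3 brightest of its locus, had 1 of the 3 smallest p-values of a genotype comparison in a subset, or was among the 4 largest called changes per locus and direction between the subsets, as was the beta V probe set that the study lists. The members and gene lists were chosen with earlier results of these data known. Other filters, constants, normalization, blocks, tests and left-out pairs were tried. Scripts were tested on simulated data. No sequences of the segments were used here.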

Additional observations from a re-analysis of the deposited data

Results flagged for a closer look

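In 64 groups of 4 arrays (probe set, subset and genotype), 5 arrays lay far from the other 3 by Dixon's criterion at the 95% level. Chance alone flags about 1 in 20 such groups. In wild-type DN3 cells, the mouse of pair 1 had 12687 for Trgv1 (others 6887 to 7321) and 1702 for Trbv13-2 (others 1058 to 1142). In PKBα-/- ISP8 cells, Trgv1 was 391 in pair 4 (others 543 to 566), Trbv13-2 was 875 in pair 1 (others 592 to 635) and the Trgv4 probe set 1450521_a_at was 1846 in pair 2 (others 1042 to 1144).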

How the results depend on the processing

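The count of TCR locus probe sets called was 0 for PKBα loss in DN3, in ISP8 and for their difference under every alternative run, and 12 to 14 (main 13) for ISP8 against DN3. Without the replicate block that count stayed at 13 and the genotype counts at 0. The median change of the alpha locus from DN3 to ISP8 (2.18) was 0.89 with no filter and 1.15 without _x_at probe sets, and that of the beta locus (0.22) was -0.33 without _x_at probe sets; both follow from which probe sets enter. The alpha median for PKBα loss in ISP8 (0.06) ranged from -0.0789 to 0.0893 on leaving out each pair, -0.0789 being without pair 2. The beta V probe set listed in the study changed from 0.44 to -0.13 between the subsets in the wild-type arrays alone (limma adjusted p 0.659). The PKBα-/- arrays alone gave 1.02 (adjusted p 8.66e-04), and the main value of 0.44 averages both genotypes. This probe set was also not called without pair 4 (0.29, adjusted p 0.121), and the cause of that was not tested. Quantile normalization moved the median of all probe sets from -0.07 to 0.03 between the subsets. Of 824 values of single probe sets under alternatives, 780 kept direction and call, and 39 of 659 uncalled values changed sign. Signal near the floor of 20 limits 4 alpha probe sets and the Trgv4 probe set 1427802_a_at in ISP8 cells.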
